A study of Mus musculus with 384 samples.

Results

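Clec4a2, Clec12a, Clec7a, Clec5a and Olr1 encode C-type lectin receptors, surface proteins of myeloid cells that were followed here in single granulocyte/macrophage progenitors (GMPs) of mice with the BCR-ABL oncogene induced and of Control mice. These 5 of the 46078 gene rows were selected on measured values of these data, namely their level in BCR-ABL against Control cells and their relation to Gfi1 and neutrophil granule genes, so their levels, shares of cells and relations to those genes are described with no test. Of 384 wells, 323 had at least 50000 reads on genes and at least 1000 genes with a read and were kept. The BCR-ABL cells came from C57Bl/6 Scl-tTA::TRE-BCR/ABL mice, in which the tetracycline transactivator under Scl control turns on the oncogene where Scl is active once doxycycline is withdrawn. They were bred on 20 mg/L doxycycline, induced by its withdrawal at 5 weeks of age and analysed 5 to 6 weeks later. The Control mice were analysed alongside, and their genotype and doxycycline history are not given beyond that word. Marrow was crushed or flushed, enriched for c-Kit, and sorted as lin-/c-Kit+/Sca-1-/CD34+/FcγR+ single cells into 96-well plates for SMART-seq2, a full-length cDNA method. There were 3 BCR-ABL sets, numbered 1, 2 and 4, with 76, 61 and 92 kept cells, and 1 Control set with 94 kept cells. Whether each set is a different animal is not stated, so part of the spread between sets may be technical, although Xist, given at the end, sets BCR-ABL 1 apart from BCR-ABL 2 and 4 by sex, and the single Control set cannot be told apart from its plate and its animal.

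C-type lectin receptors bind sugars, lipids or other ligands on microbes and damaged cells. Some carry an inhibitory motif in their cytoplasmic tail and recruit phosphatases, and a few act as scavenger receptors. Others signal for activation through Syk, either directly or through partner adaptors such as the products of Tyrobp and Fcer1g. In marrow several of them mark the granulocyte and monocyte lineages. Gfi1 is a transcription factor of the neutrophil fate and Irf8 one of the monocyte and dendritic cell fates, and Elane, Mpo, Ctsg and Prtn3 encode proteins of the primary granules that neutrophil precursors make first.

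The genes lie on chromosome 6 of the mm10 build, per GENCODE. Olr1 spans chr6:129485244-129507165 and Clec7a spans chr6:129461591-129472779, both on the minus strand and 12464 bp apart. Clec12a, at chr6:129342691-129365303 on the plus strand, ends 96287 bp before Clec7a. Clec4a2, at chr6:123106428-123143999 on the plus strand, and Clec5a, at chr6:40574894-40585821 on the minus strand, lie elsewhere on the chromosome. GENCODE gives Clec7a the biotype polymorphic pseudogene and the other members protein coding, and an annotated pseudogene, Gm44132, lies within the span of Clec4a2 on the same strand. How reads in overlapping genes or with several matching places were counted is not given in the sources used here, so the Clec4a2 value is uncertain where reads could be shared with Gm44132 or with close relatives in its gene cluster.

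Upstream sequence is shown for the neighbours Olr1 and Clec7a, whose levels differed in opposite directions, and for Clec4a2, which had the largest difference. The sequences are from RefSeq (GRCm38.p6), run 5′ to 3′ on the gene's strand and lie before the annotated start, at chr6:129507166-129507415 (minus strand), chr6:129472780-129473029 (minus) and chr6:123122440-123122621 (plus, without the 68 bases next to the start, which other transcripts use as exon). Capitals mark the PU.1 core GAGGAA, the C/EBP letters TTNCNNAA and the ETS-IRF composite (GGAA and, after 2 free bases, GAAA), on either strand.
Olr1: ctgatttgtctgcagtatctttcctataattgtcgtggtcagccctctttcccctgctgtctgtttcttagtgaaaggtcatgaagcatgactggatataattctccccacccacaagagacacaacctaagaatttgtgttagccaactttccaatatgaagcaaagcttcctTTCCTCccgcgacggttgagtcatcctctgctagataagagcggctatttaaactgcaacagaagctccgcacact
Clec7a: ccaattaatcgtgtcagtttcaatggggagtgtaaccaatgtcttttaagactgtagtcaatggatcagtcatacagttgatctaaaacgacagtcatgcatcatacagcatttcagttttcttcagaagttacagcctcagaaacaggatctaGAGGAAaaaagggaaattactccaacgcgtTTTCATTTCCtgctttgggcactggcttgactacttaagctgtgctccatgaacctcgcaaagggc
Clec4a2: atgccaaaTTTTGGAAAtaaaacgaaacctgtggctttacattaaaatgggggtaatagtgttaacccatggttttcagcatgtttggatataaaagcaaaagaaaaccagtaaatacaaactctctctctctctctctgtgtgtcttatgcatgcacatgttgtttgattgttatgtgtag
PU.1, C/EBP factors and IRF8 are transcription factors of myeloid cells. GAGGAA occurred in the 250 bases before the start of Olr1 (76 bases before it), Clec7a (96 bases), Clec12a (61 and 47 bases) and Clec5a (81 and 55 bases), and in 23.3% of 32851 RefSeq promoters of that length. The composite was found in the Clec7a window, 66 bases before the start, and in no window of the other 4 genes, against 2.3% of all promoters. C/EBP letters stood 242 and 241 bases before the Clec4a2 start as overlapping matches, 120 bases before that of Clec5a, and 140 and 87 bases before that of Clec12a, the first of these being the palindrome TTGCGCAA. The C/EBP letters were in 36.8% of all promoters. All 250 bases of the Clec12a window are annotated as exon of a Clec12a transcript. The Clec12a and Clec4a2 windows both lie inside the GENCODE span of their gene. These are matches of letters only.

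In sums over the kept cells, Clec4a2, Clec12a, Olr1 and Clec5a were higher in every BCR-ABL set than in the Control set, and Clec7a was lower in every one. Over all 20324 genes tested, every BCR-ABL set lay above Control for 24.2% and every one lay below for 26.6%. The members were chosen with this contrast known, so their count is not read against these shares. The largest difference was that of Clec4a2, about 2 on the log2 scale, and the smallest that of Clec5a. Levels of a gene in the summed sets are in CPM, counts of reads per 1e6 reads on genes after scaling by TMM. CPM of single cells, means over cells and sums over a gene list were not scaled by TMM.

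Among the receptors with an inhibitory tail, Clec4a2, a receptor of the DCIR group, had 122, 96.7 and 174.5 CPM in the BCR-ABL 1, 2 and 4 sets, against 32.2 CPM in the Control set. The BCR-ABL mean was 131 ± 39.7 CPM (SD, n = 3 sets) and the difference of mean log2 CPM from Control was 1.98. The sets did not overlap, and the lowest BCR-ABL set, BCR-ABL 2, was still well above Control. Clec12a, known as MICL or CLL-1 and used as a surface marker of myeloid progenitors and of leukaemic cells in human acute myeloid leukaemia, had 1455, 1285 and 1647 CPM in BCR-ABL 1, 2 and 4, against 982 CPM in Control. Its BCR-ABL mean was 1460 ± 181 CPM (SD, n = 3) and its log2 difference was 0.57. Again BCR-ABL 4 was highest and BCR-ABL 2 lowest among the BCR-ABL sets, with no overlap with Control.

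The activating receptors went different ways. Clec7a, or Dectin-1, binds fungal β-glucan and signals through Syk and Card9. It had 30.4, 27.7 and 7.61 CPM in BCR-ABL 1, 2 and 4, against 58.2 CPM in Control, a BCR-ABL mean of 21.9 ± 12.5 CPM (SD, n = 3) and a log2 difference of -1.65. BCR-ABL 4 stood far below the other BCR-ABL sets, and without it the log2 difference was -1.01. Clec5a, or MDL-1, is coupled to the Tyrobp and Hcst adaptors and had 161, 179.5 and 120.6 CPM in BCR-ABL 1, 2 and 4, against 117 CPM in Control. The BCR-ABL mean was 154 ± 30.1 CPM (SD, n = 3), and the log2 difference of 0.38 was close to the SD of the BCR-ABL sets on that scale, 0.30. BCR-ABL 4 was almost level with Control, and with cells thinned to equal depth the difference was 0.20 and 2 of the 3 BCR-ABL sets lay above Control.

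Olr1, or LOX-1, a scavenger receptor for oxidised low-density lipoprotein that also marks a subset of human neutrophils in cancer, had 45.7, 37.7 and 69.9 CPM in BCR-ABL 1, 2 and 4, against 21.02 CPM in Control. Its BCR-ABL mean was 51.1 ± 16.8 CPM (SD, n = 3), with a log2 difference of 1.23. As for Clec4a2 and Clec12a, BCR-ABL 4 was highest, BCR-ABL 2 lowest of the BCR-ABL sets, and Control below them. Olr1 and its neighbour Clec7a thus ran in opposite order over the sets at their extremes, Olr1 being highest and Clec7a lowest in BCR-ABL 4.

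Per kilobase of exon, the order of the genes was the same at the top and different below. In the BCR-ABL sets Clec12a led with 264 ± 33 RPKM (reads per kilobase of exon and 1e6 reads, SD, n = 3), followed by Clec4a2 with 44.8 ± 13.6, Clec5a with 40 ± 7.84, Olr1 with 14.3 ± 4.73 and Clec7a with 8.29 ± 4.71. The levels of Clec4a2 and Clec5a differed by less than their spread. In the Control set the order was Clec12a with 178 RPKM, Clec5a with 30.5, Clec7a with 22.1, Clec4a2 with 11.0 and Olr1 with 5.88.

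**Figure D1:**
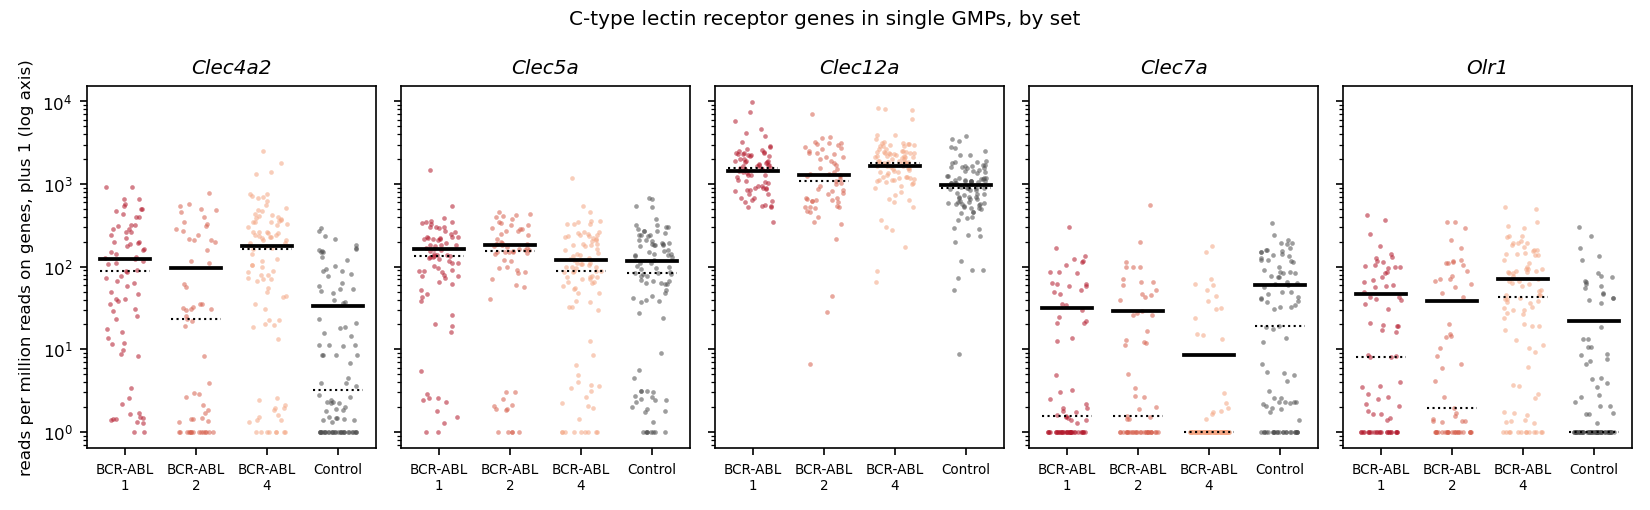
Level of each receptor gene in every kept cell (points, CPM plus 1 on a log axis), with the level of the summed set as a solid line and the median cell as a dotted line, for BCR-ABL 1, 2, 4 and Control from left to right. Clec12a is a single band near 1000, while Clec4a2, Clec7a and Olr1 split into cells at or near 0 and cells well above it, and the median Clec4a2 cell lies at 86.5, 22.3 and 163 CPM in BCR-ABL 1, 2 and 4 and at 2.21 CPM in Control.

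The cells differed from one another in a different manner for each gene. Shares of cells were taken after each cell had been thinned to 674952 reads, a depth reached by 65, 54 and 81 cells of BCR-ABL 1, 2 and 4 and by 90 of Control. Reads carry no molecular identifiers, so the intervals (exact Clopper-Pearson, 95%) cover counting error only. Clec12a had a read in 100% of cells of every set, with lower bounds from 93.4% to 96.0%, so its difference between sets was one of level and not of detection at this depth.

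Clec4a2 had at least 10 reads in 70.8% (58.2 to 81.4), 51.9% (37.8 to 65.7) and 79% (68.5 to 87.3) of cells in BCR-ABL 1, 2 and 4, against 34.4% (24.7 to 45.2) in Control. With a single read as the bar the shares were 86.2%, 61.1% and 84%, against 62.2%, so BCR-ABL 2 was no longer above Control. Many Control cells, 25 of 90, held 1 to 9 reads, compared with 10 of 65, 5 of 54 and 4 of 81 BCR-ABL cells. Unthinned, 97.4%, 75.4% and 91.3% of BCR-ABL cells and 69.1% of Control cells had a read. The shares with 10 reads kept the order of the summed levels, and those with a single read did not.

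Olr1 reached 10 reads in 46.2%, 33.3% and 69.1% of cells in BCR-ABL 1, 2 and 4, against 21.1% in Control, and 1 read in 60%, 53.7% and 81.5%, against 38.9%. Every BCR-ABL set was above Control at both bars. For Clec7a the shares with 10 reads were 35.4%, 33.3% and 13.6% (6.98 to 23), against 54.4% in Control, and those with 1 read were 43.1%, 50% and 19.8%, against 71.1%. In BCR-ABL 4 it had no read in 65 of 81 cells, and 24.7% of its unthinned reads came from 1 cell. Clec5a reached 10 reads in 86.2%, 83.3% and 80.2% of BCR-ABL cells and 73.3% of Control cells, and the intervals of each BCR-ABL set and of Control overlapped. The wells left out of the analysis also held reads of these genes, a single Clec12a read or more in 61 of 61 wells, 10 or more in 19, and at most 3 Olr1 reads in any well.

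Most cells carried several of the receptors at once. At 10 reads, 4 or 5 of the 5 genes were found together in 43.1%, 33.3% and 56.8% of cells of BCR-ABL 1, 2 and 4, against 24.4% in Control. By itself Clec12a reached that bar in 98.1% or more of the cells of every set, and Clec5a in 73.3% or more. Cells with Olr1 usually had Clec4a2 as well, in 80%, 77.8% and 94.6% of the Olr1 cells of the BCR-ABL sets and 52.6% of those of Control. Over all cells the share with Clec4a2 was 70.8%, 51.9% and 79% in the BCR-ABL sets and 34.4% in Control. Clec4a2 and Clec7a were found together in 13.8%, 16.7% and 12.3% of BCR-ABL cells and in 17.8% of Control cells. Olr1 and Clec7a, the neighbours, shared 13.8%, 11.1% and 11.1% of BCR-ABL cells and 7.78% of Control cells.

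Across cells within a set, Clec4a2, Clec12a and Olr1 followed Elane, and Clec5a and Clec7a did so weakly or not at all. The name of neutrophil-primed receptors thus did not hold by Elane for all 5 genes. The genes were chosen with their relation to granule genes known, so for Clec4a2, Clec12a and Olr1 these values are no support for that name. All coefficients are Spearman's rho on thinned reads over the 65, 54, 81 and 90 cells named above. The cells of a set share a plate, a depth class and an animal or pool, and the coefficients are descriptions. Clec4a2 had a rho with Elane of 0.73, 0.75 and 0.76 in BCR-ABL 1, 2 and 4 and 0.38 in Control. For Clec12a the values were 0.76, 0.77 and 0.59, and 0.51 in Control, and for Olr1 0.45, 0.38 and 0.41, and 0.31 in Control. Clec5a had -0.08, 0.29 and 0.22, and 0.18 in Control, and Clec7a had -0.20, -0.07 and 0.02, and -0.27 in Control. Among 8816 genes ranked by the mean rho over the 4 sets, Elane, which encodes neutrophil elastase, stood first for Clec4a2, Clec12a and Olr1.

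With Gfi1 itself the relation was looser and differed more between sets. Clec4a2 had a rho with Gfi1 of 0.54, 0.44 and 0.34 in BCR-ABL 1, 2 and 4 and 0.09 in Control, Clec12a 0.57, 0.48 and 0.14, and 0.12 in Control, and Olr1 0.36, 0.41 and 0.21, and 0.16 in Control. In that ranking Gfi1 was 61st for Clec4a2, 91st for Clec12a and 39th for Olr1, and Cebpe, a transcription factor of granule formation, was 21st, 47th and 6th. Irf8 was near the far end for Olr1, at place 8812 of 8816, with a rho of -0.38, -0.38 and -0.22 in the BCR-ABL sets and -0.27 in Control.

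Clec5a and Clec7a ranked Irf8 high and Gfi1 low. Irf8 was 67th for Clec5a and 75th of 8817 for Clec7a, while Gfi1 was at place 8595 and 8530. Clec5a had a rho with Irf8 of 0.33, 0.15 and 0.19 in BCR-ABL 1, 2 and 4 and 0.30 in Control. Its relation to the granule genes was mixed: Elane was 454th in its ranking, and its rho with Prtn3, which encodes proteinase 3, was 0.12, 0.37 and 0.46 in BCR-ABL 1, 2 and 4 and 0.27 in Control. With Mpo, at place 3107, its rho was -0.06, 0.15 and 0.19, and -0.08 in Control. With Ctsg it was -0.10, 0.39 and 0.19, and 0.01 in Control. Cebpe was at place 8518 for Clec5a. For Clec7a the relation was seen chiefly in Control, where rho was 0.51 with Irf8 and 0.52 with Csf1r, the receptor of the macrophage growth factor. In BCR-ABL 1, 2 and 4 the values with Irf8 were 0.21, 0.21 and -0.02. The low number of Clec7a cells in BCR-ABL 4, 16 of 81 with a read, leaves little to rank there.

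Summed reads of the monocyte list, of which Ly6c2 gave 60.1%, did not divide the 5 genes in the same way. Clec5a had a rho with them of 0.32, 0.46 and 0.39 in BCR-ABL 1, 2 and 4 and 0.42 in Control, but Clec4a2 had 0.25, 0.56 and 0.58, and 0.21 in Control, and Clec12a had 0.22, 0.53 and 0.68, and 0.09 in Control. Clec7a had 0.04, 0.01 and 0.04, and 0.43 in Control, and Olr1 had -0.04, 0.13 and 0.28, and -0.12 in Control. Clec4a2 and Clec12a thus followed both this sum and Elane within the BCR-ABL sets.

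The granule genes were not followed alike. Summed reads of the primary granule list, of which Mpo gave 40.5% and Elane 23.6%, had a rho of 0.71, 0.68 and 0.70 with Clec4a2 in the BCR-ABL sets and 0.31 in Control. Summed reads of the late granule list, of which Lyz2 gave 29.2%, S100a8 21.6% and Lcn2 14.8%, also had a positive rho in every set, of 0.36, 0.52 and 0.47 with Clec4a2 and 0.23 in Control, of 0.24, 0.47 and 0.54 with Clec12a and 0.10 in Control, and of 0.32, 0.60 and 0.26 with Clec5a and 0.29 in Control. Camp, the cathelicidin gene, had 0.32, 0.34 and 0.42 with Clec4a2, and -0.05 in Control. Its level was low, at 2.11, 0.813 and 3.62 CPM, against 0.688 CPM in Control. Ngp, also of the late granule list, had a rho of 0.15, 0.01 and 0.10 with Clec4a2, and -0.13 in Control. Ltf of that list had 0.16 in BCR-ABL 4 and -0.12 in Control, and no reads in BCR-ABL 1 and 2. Lcn2, a lipocalin of that list, differed from the sum. With it Clec4a2 had a negative rho in the BCR-ABL sets, -0.32, -0.20 and -0.50, and a positive one in Control, 0.28. Clec12a and Olr1 had the same signs, at -0.34, -0.16 and -0.33, and 0.19 in Control, and at -0.06, -0.06 and -0.45, and 0.25 in Control. S100a8, a calcium-binding protein abundant in neutrophils, was opposite in sign to Lcn2 in the BCR-ABL sets and positive like it in Control, with a rho of 0.63, 0.59 and 0.71 with Clec4a2 in the BCR-ABL sets and 0.17 in Control. Lcn2 itself had 442, 258 and 504 CPM in BCR-ABL 1, 2 and 4, against 45.7 CPM in Control.

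Depth and complexity moved with some of these values. With reads on genes before thinning, rho was -0.57, -0.12 and -0.37 for Clec4a2 in BCR-ABL 1, 2 and 4 and -0.12 in Control. For Clec12a that rho was -0.42, -0.22 and -0.52, and -0.05 in Control, and for Clec7a 0.23, 0.3 and 0.02, and 0.2 in Control. Clec4a2 had a rho of -0.56, -0.39 and -0.54 with the number of genes with a read in BCR-ABL 1, 2 and 4 and of -0.12 in Control, and Clec12a one of -0.44, -0.32 and -0.49, and 0.15 in Control. For Clec7a it was 0.41, 0.37 and 0.17, and 0.26 in Control. The part of cell size or library complexity in the relations was not tested.

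**Figure D2:**
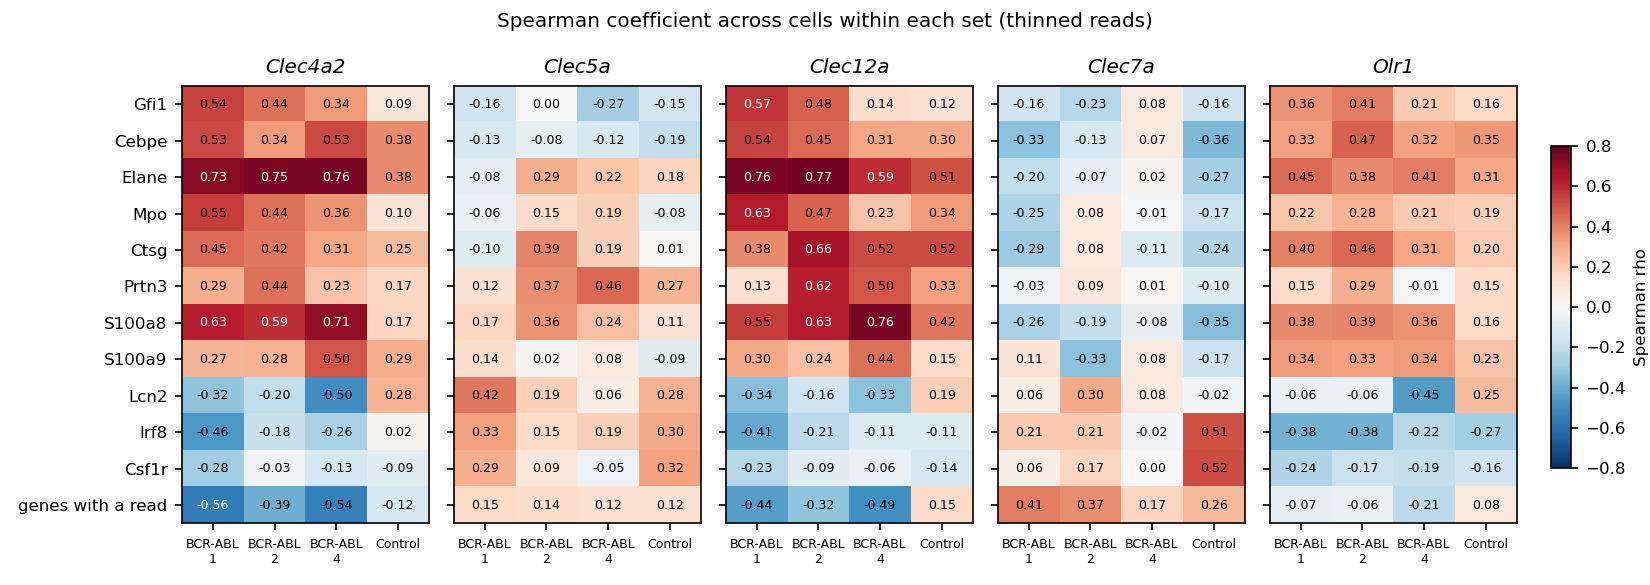
Spearman's rho of each receptor gene with regulators, granule genes, Csf1r and the number of genes with a read, in BCR-ABL 1, 2, 4 and Control (columns), over cells thinned to 1 depth. The Elane row runs between 0.38 and 0.77 for Clec4a2 and Clec12a, and the Irf8 row is positive for Clec7a in Control, at 0.51.

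The genes that ranked nearest to each member by mean rho over the 4 sets were, for Clec4a2, Elane (0.65), Clec12a (0.61), Tmsb4x (0.58), Fcnb (0.57) and C3 (0.56). Clec12a had Elane (0.66), Srgn (0.63), Mgst2, Clec4a2 and Tmsb4x (0.61 each), and Olr1 had Elane and Nkg7 (0.39 each), Clec4a2 (0.38), Srgn and Rgcc (0.37 each). Srgn encodes serglycin, the proteoglycan core of granules, and Fcnb a ficolin of granules. Clec5a was nearest to F13a1, Hp, Siglece (0.42 each), Dmkn (0.41) and Cybb (0.39). Clec7a was nearest to Racgap1 (0.34), F13a1 (0.32), Cdkn3, Ccnb2 and Cenpf (0.31 each), of which all but F13a1 belong to mitosis or the cell cycle. F13a1, a coagulation factor subunit made by monocytes, was the gene that Clec5a and Clec7a had in common.

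Cells were then divided by whether they held at least 10 thinned reads of Gfi1 and of Irf8. Cells with Gfi1 and without Irf8 numbered 35 of 65, 16 of 54 and 60 of 81 in BCR-ABL 1, 2 and 4, against 8 of 90 in Control. Those with Irf8 and without Gfi1 numbered 14, 15 and 1, against 51. The makeup of the sets by these genes was thus nearly turned round between BCR-ABL 4 and Control. Cells with neither numbered 3, 2 and 5, against 4.

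Taking Gfi1 by itself, cells with it were compared with all other cells of their set, 48 with 17, 37 with 17 and 75 with 6 in BCR-ABL 1, 2 and 4, and 35 with 55 in Control. The log2 ratio of the Clec4a2 means was 2.50, 2.05 and -0.06 in the BCR-ABL sets and 0.03 in Control. For Clec12a it was 0.80, 0.58 and 0.04, and 0.03 in Control, and for Olr1 1.79, 3.17 and 0.36, and 0.69 in Control. For Clec4a2 and Clec12a a higher level with Gfi1 was thus seen in BCR-ABL 1 and 2, and the ratio was about 0 in BCR-ABL 4 and Control.

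In cells with Gfi1 alone, Clec4a2 averaged 234, 155 and 223 CPM in BCR-ABL 1, 2 and 4, against 91.3 CPM in the 8 Control cells. In cells with Irf8 alone it averaged 23.8 and 34.7 CPM in BCR-ABL 1 and 2, against 39.9 CPM in Control, and was at 0 in the single cell of BCR-ABL 4. In these means BCR-ABL cells lay above Control cells with Gfi1 alone and below them with Irf8 alone, and the difference between the classes was not tested. The medians did not keep that order. With Gfi1 alone they were 199, 48.9 and 178 CPM in BCR-ABL 1, 2 and 4, against 83 CPM in Control. With Irf8 alone they were 13.3 and 1.48 CPM in BCR-ABL 1 and 2, against 2.96 CPM in Control. In cells with both regulators Clec4a2 averaged 45.2, 105 and 79.2 CPM in BCR-ABL 1, 2 and 4, against 22.1 CPM in Control. The 5 BCR-ABL 4 cells with neither averaged 242 CPM, above those with Gfi1 alone.

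In cells with Gfi1 alone Olr1 averaged 68.7, 92.4 and 89.1 CPM in BCR-ABL 1, 2 and 4, against 72.4 CPM in Control, where BCR-ABL 1 lay below and BCR-ABL 2 and 4 above. It had 10 reads in 60%, 68.8% and 76.7% of those BCR-ABL cells and in 5 of the 8 Control cells. Clec12a averaged 1880, 1890 and 1950 CPM in them, against 1490 CPM in Control. In cells with Irf8 alone it averaged 980 and 1090 CPM in BCR-ABL 1 and 2, against 1050 CPM in Control, so the sets overlapped there.

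Clec7a showed the reverse order over the classes in Control, with 6.48 CPM in the 8 cells with Gfi1 alone, 49.1 CPM in the 27 with both and 69.9 CPM in the 51 with Irf8 alone. In the BCR-ABL sets it was 15.4, 19.8 and 10.8 CPM with Gfi1 alone. Cells with Irf8 alone had 33.4 CPM in BCR-ABL 1 and 17.1 CPM in BCR-ABL 2, both under the Control value of that class. Clec5a was higher with Irf8 alone than with Gfi1 alone, at 201 against 116 CPM in BCR-ABL 1, 200 against 136 CPM in BCR-ABL 2 and 159 against 100 CPM in Control. The 8 Control cells with Gfi1 alone and the few BCR-ABL 4 cells without Gfi1 limit each of these comparisons.

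**Figure D3:**
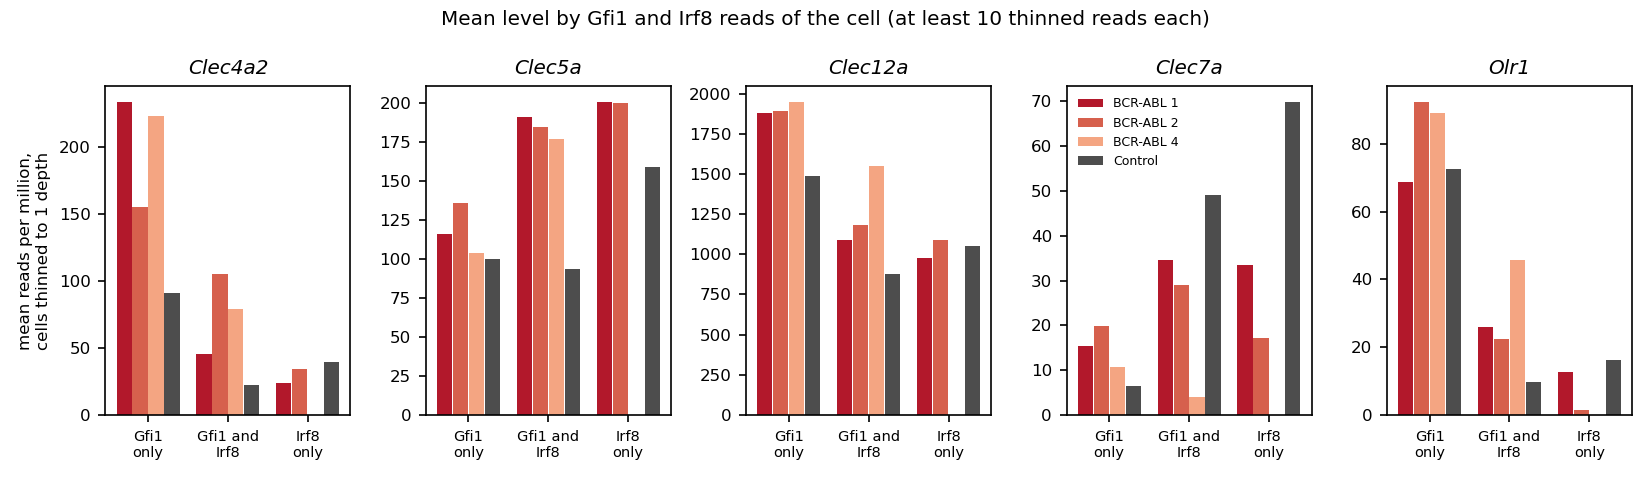
Mean CPM of each receptor gene in cells with at least 10 thinned reads of Gfi1 only, of both genes, or of Irf8 only, for BCR-ABL 1, 2, 4 and Control (bars from left to right, no error bar). The BCR-ABL 4 bar with Irf8 only is left out because it holds 1 cell, and the 2 to 5 cells per set with neither gene are not drawn. Of the 3 classes drawn, Clec4a2, Clec12a and Olr1 are highest with Gfi1 only in every set.

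A finer split by Elane, chosen after the coefficients had been seen, put the thinned cells of each set into 4 groups of about equal size. From the lowest to the highest Elane group, Clec4a2 averaged 24.1, 77, 173 and 307 CPM in BCR-ABL 1, 4.02, 21.7, 89.1 and 265 CPM in BCR-ABL 2, and 41.6, 119, 257 and 369 CPM in BCR-ABL 4, against 9.53, 37.4, 41.7 and 61.1 CPM in Control. The Control curve was flatter, and its highest group lay below the second-highest group of each BCR-ABL set. Elane itself had 18300, 16900 and 18800 CPM in BCR-ABL 1, 2 and 4, against 12900 CPM in Control. The groups were cut within each set, so groups of the same rank were not matched for Elane level between sets. Clec12a averaged 2060, 2520 and 2400 CPM in the highest Elane group of the BCR-ABL sets, against 1490 CPM in Control, and 749, 575 and 1360 CPM in the lowest group, against 611 CPM. In the lowest group BCR-ABL 2 was thus below Control. Olr1 averaged 96.7, 87.5 and 111 CPM in the highest group of the BCR-ABL sets, against 27.3 CPM in Control. Clec7a averaged 17, 19.4 and 19 CPM in the highest group, against 41.2 CPM, and 39.3, 14.8 and 1.98 CPM in the lowest, against 76.8 CPM, so it was below Control at both ends.

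**Figure D4:**
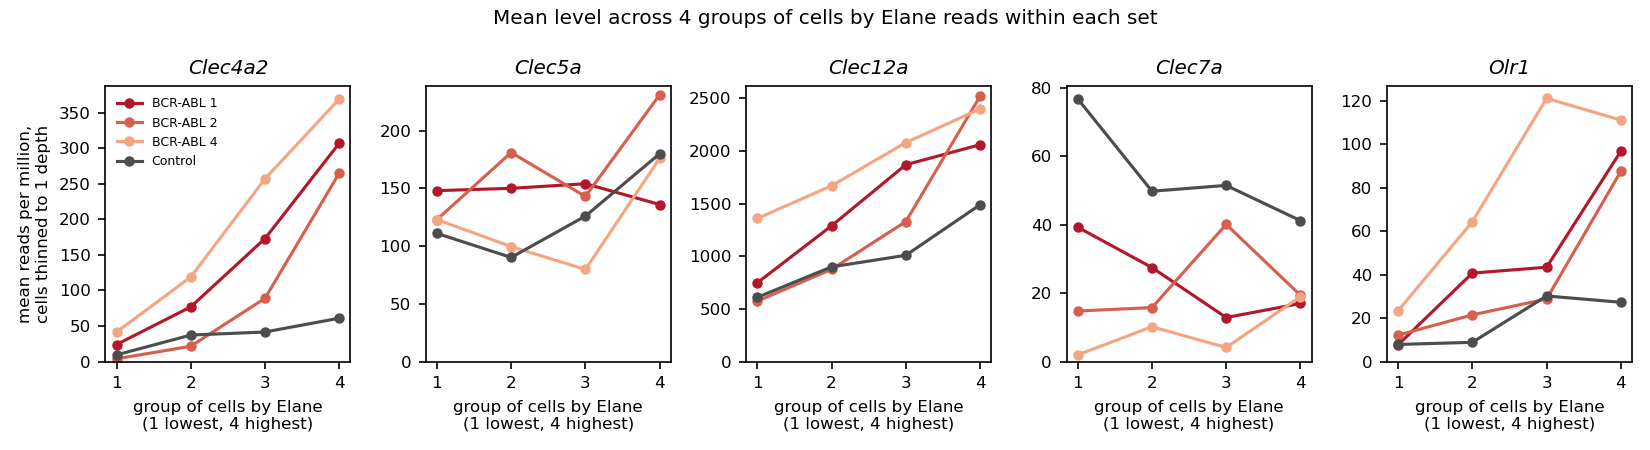
Mean CPM of each receptor gene in 4 groups of cells by Elane reads within each set (1 lowest, 4 highest) for BCR-ABL 1, 2, 4 and Control, with cells thinned to 1 depth and no error bar. Clec4a2 climbs to 265 CPM or more in the BCR-ABL sets and to 61.1 CPM in Control.

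Other genes of these receptors' pathways were tested across the whole table. edgeR's quasi-likelihood test with Benjamini-Hochberg adjustment on 3 BCR-ABL sums and 1 Control sum called 0 of 20324 genes (0%), with a smallest adjusted p of 0.594 and 1459 genes at an unadjusted p under 0.05. limma-voom called 0, with 1659 such genes. DESeq2 called 562 (2.77%), 395 higher and 167 lower. With 1 Control set the fit leans on the spread of the BCR-ABL sets.

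The adaptors and kinases of C-type lectin signalling had 23 of 24 genes tested, 0 called in either direction by edgeR and a median log2 fold change of 0.02, against 0.05 over all genes. Tyrobp, the adaptor of Clec5a, had 402, 469 and 335 CPM in BCR-ABL 1, 2 and 4, against 692 CPM in Control, and Fcer1g, the shared γ chain, had 185, 236 and 157 CPM, against 408 CPM. Their log2 fold changes were -0.78 and -1.08, with adjusted p of 0.642 and 0.624 by edgeR, and DESeq2 called both together with Blnk, Nfatc2 and Prkcd. Hcst, the other adaptor of Clec5a, had 39.3, 38.3 and 48.2 CPM, against 26.5 CPM in Control. Downstream, Syk had 77.7, 89.4 and 88 CPM, against 88.3 CPM, and Card9 had 116, 134 and 133 CPM, against 95.1 CPM. For the inhibitory tails, the phosphatase gene Ptpn6 had 307, 347 and 290 CPM, against 359 CPM in Control, and the exchange factor Vav1 had 245, 234 and 254 CPM, against 241 CPM.

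Of 65 other genes with a C-type lectin fold, 36 were tested, 0 were called by edgeR and the median log2 fold change was 0.20. The sign of that median depended on the fit. It was 0.19 by DESeq2 and -0.27 by limma-voom. By edgeR it was -0.02 without BCR-ABL 1, 0.20 without BCR-ABL 2 and -0.13 without BCR-ABL 4. DESeq2 called 6, Cd93, Clec10a, Clec4b2, Klrb1b, Klrb1f and Klrk1, beside its 2.77% of all genes. Cd93 had 148, 137 and 127 CPM in BCR-ABL 1, 2 and 4, against 337 CPM in Control, with a log2 fold change of -1.30 and an adjusted p of 0.594 by edgeR. Cd69 overlapped between the groups, at 136, 104 and 76.2 CPM, against 90.4 CPM. Prg2, an eosinophil granule protein with a lectin fold, had reads in BCR-ABL 4 at 918 CPM, of which 99.4% came from 1 cell. The other genes of the cluster of Clec4a2 were set beside it after their values had been seen. Clec4e and Clec4d, activating receptors, had 50.8, 36.4 and 72.7 CPM in BCR-ABL 1, 2 and 4, against 24 CPM in Control, and 20.9, 13.6 and 28 CPM, against 8.26 CPM. Clec4b2 had 7.58, 7.94 and 15.3 CPM, against 0.985 CPM, with a log2 fold change of 3.38 and an adjusted p of 0.619 by edgeR. Clec4a3 lay the other way, at 1.55, 2.36 and 2.36 CPM, against 4.83 CPM, as did Clec4b1, at 0.113, 0.0913 and 0.209 CPM, against 0.447 CPM. Clec4a1, Clec4a4 and Clec4n stayed at 1.03 CPM or less in every set, so the genes of the cluster did not share 1 direction.

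The list of inhibitory and paired activating receptors had 22 genes tested, 0 called by edgeR and a median of 0.13. Trem3 had 369, 351 and 404 CPM in BCR-ABL 1, 2 and 4, against 177 CPM in Control, with a log2 fold change of 1.08 and an adjusted p of 0.594, and was among the 6 genes of the list that DESeq2 called, with Trem1, Trem2, Cd300lb, Cd300ld and Cd300lf. The Fc receptors Fcgr3, at 703, 573 and 573 CPM against 577 CPM, and Fcgr2b, at 225, 219 and 244 CPM against 220 CPM, are of the sorting gate. Sirpa had 126, 94.5 and 146 CPM, against 145 CPM in Control.

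**Figure D5:**
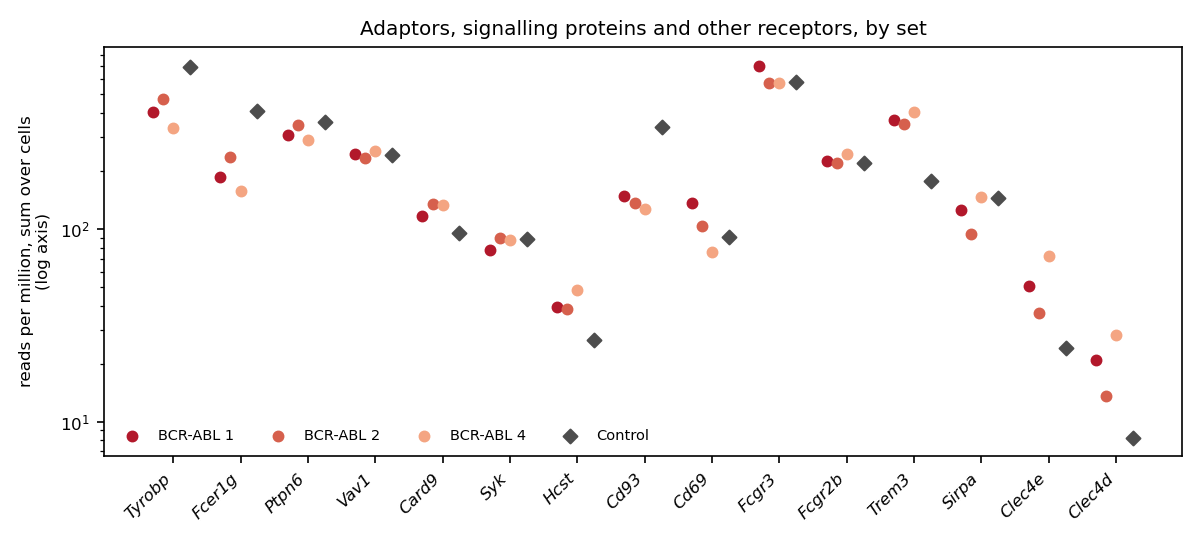
CPM of summed sets on a log axis for adaptors, signalling proteins and other receptors (circles BCR-ABL 1, 2 and 4, diamonds Control). Tyrobp and Fcer1g lie below the Control diamonds in all 3 BCR-ABL sets, and Trem3 and Hcst above them.

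Facts of the sets bear on all of these values. Median reads on genes per cell were 1649313, 2084608 and 1385349 in BCR-ABL 1, 2 and 4, against 1200639 in Control. Of the genes of the gate, Kit had 261, 242 and 309 CPM, against 236 CPM in Control, Ly6a (Sca-1) lay between 1.28 and 3.48 CPM, and Cd34 was at 149, 182 and 155 CPM, against 436 CPM in Control. Monocyte genes were lower by log2 fold change in 20 of 20, with summed levels of 6424, 7290 and 5660 CPM, against 10220 CPM, and of 17 primary granule genes tested 16 had a positive fold change, with sums of 76030, 72190 and 79860 CPM, against 63490 CPM. Over all 20324 genes tested, 9305 had a negative and 11019 a positive fold change. Xist, which female cells express, was at 5 CPM or more in 75 of 76, 0 of 61 and 3 of 92 cells of BCR-ABL 1, 2 and 4 and in 94 of 94 Control cells. The part of sex in the differences was not tested.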

How the data were processed

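The authors deposited raw counts, 1 column of Ensembl genes per well, made with GSNAP, HTSeq 0.5.3p3 and mm10, per the submitters' processing notes. Annotation release, strand setting and read filters are not given in the sources used. Rows for spike-ins and summaries, 55.1% of reads, were left out. Symbols and positions came from GENCODE on the same build and matched 45143 of 46078 gene rows. Wells with 50000 reads on genes and 1000 genes were kept. No doublet caller was run on these sorted single cells.

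Cells are not replicates, so each set was reduced to 1 sum of counts, and edgeR 4.0.16 (quasi-likelihood F test, TMM, filterByExpr, threshold 0.05) in R 4.3.3 set the 3 BCR-ABL sums against the Control sum. DESeq2 1.42.0 and limma 3.58.1 were alternatives, and the p-values measure only the spread between these sets. Shares and relations used cells thinned to 674952 reads, which left out 33 cells of lower depth, with scipy 1.17.1. The 5 genes, the lists and the rules were chosen with earlier results of these data known. The text names the 5 genes, the 4 genes of highest mean CPM in each pathway list, the 5 genes most alike each member, fixed regulators and granule genes, and others named as chosen after their values were seen. Hcst, Csf1r, Kit, Cd34, the genes of the Clec4a2 cluster and the genes that DESeq2 called in the 3 pathway lists are such others. Values of 1 gene that the rule names are not reported here.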

Additional observations from a re-analysis of the deposited data

How the results depend on the processing

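Of 190 alternatives computed for the 5 genes, 181 left the value within the spread between sets (SD) and 9 moved it. Many of them left out 1 set, which by arithmetic hardly can move a mean past the SD of the sets that form it. The count is therefore no measure of how firm the values are. The sign turned in 3, all of Clec7a: its rho with late granule reads was 0.03 without BCR-ABL 1 and 0.02 without BCR-ABL 4, against -0.02 with all sets, and its log2 ratio of cells with Gfi1 over other cells was 0.54 with a bar of 1 Gfi1 read, against -0.30 with 10. Both ratios are means without BCR-ABL 4, where cells without Gfi1 had no Clec7a read. With the bar of 1 read the ratio was 1.27 in BCR-ABL 1, 0.71 in BCR-ABL 2 and -0.37 in Control. Cells without Gfi1 then numbered 7 in BCR-ABL 1 and 8 in BCR-ABL 2. DESeq2 called 395 genes higher and 167 lower, against 0 by edgeR, and 6, 5 and 6 genes in the lists of other lectin genes, adaptors and kinases, and paired receptors; the cause was not tested. The Clec12a log2 difference was 0.75 as a mean over cells. With a bar of 10 reads the difference in share was 32.8 points for Clec4a2, 9.9 for Clec5a and 0.5 for Clec12a, and for Clec5a it was 1.6 points in unthinned cells. With the cells of all sets pooled, rho was -0.28 for Clec7a with Gfi1, 0.42 for Olr1 with Gfi1 and 0.48 for Olr1 with primary granule reads. Leaving out each BCR-ABL set in turn gave log2 differences of 1.75 to 2.18 for Clec4a2, 0.26 to 0.54 for Clec5a, 0.48 to 0.66 for Clec12a, -2.0 to -1.01 for Clec7a and 0.98 to 1.43 for Olr1, and 0 genes called by edgeR each time. Relations without the Control set, added after the data had been seen, gave a rho with Gfi1 of 0.44 for Clec4a2, 0.40 for Clec12a and 0.33 for Olr1. No paired analysis was possible because the Control is 1 set and shares no numbers with 2 or more BCR-ABL sets. With 1 Control set, neither its plate nor its animal can be told apart from the condition, and genes with few reads in a cell limit the shares.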
